A study of Mus musculus with 23 samples.

Results

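The 9 genes described here are the 3 members of the p53 family (Trp73, Trp63 and Trp53) and 6 genes of the mitochondrial, or intrinsic, cell death pathway (Bcl2, Bcl2l1, Bcl2l11, Bax, Apaf1 and Casp9), out of 21938 protein-coding genes. They were taken by name, because Cajal-Retzius (CR) cells express Trp73 and later die. For each gene, every peak within 5 kb of any annotated transcript start, and every peak in the gene body, was read from 8 lists of ChIP-seq peaks. All 9 were found in the annotation, and all 9 carried a peak in at least 1 list.

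ChIP-seq was made for H3K27ac, a histone mark of active promoters and enhancers, and for H3K27me3, the mark that Polycomb complexes place on silent genes. Cells came from the cerebral cortex of mouse embryos of the strain Tg(Ebf2-EGFP)FB58Gsat, whose transgene drives EGFP from regulatory sequence of Ebf2, and were sorted by EGFP. The Ebf2-EGFP+ cells cover 3 stages, from E11.5 through E13.5 to E15.5, and the Ebf2-EGFP- cells the first of them. All groups carry the same transgene and had no treatment. According to the study, EGFP marks the whole preplate first, both CR and subplate neurons, and by the last stage mostly CR cells, and the negative cells are for the most part progenitors. Each list belongs to 2 ChIP libraries, except H3K27ac in Ebf2-EGFP- cells, which belongs to 1, so the counts carry no error over replicates and cell groups were compared without a test. A peak comes from a sorted population, and both marks at a gene in the same cells cannot be told apart from the marks in different cells.

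The p53 family are transcription factors that bind the same kind of DNA element. p53 halts the cell cycle or starts cell death after damage. p63 is known for epithelia and germ cells. p73 is made from a 5′ promoter as a full-length (TA) form and from an internal promoter as a shorter (ΔN) form, which opposes p53 and TA forms and favours the survival of neurons, and it is a classic marker of CR cells. In intrinsic cell death, Bcl2 and Bcl2l1 (Bcl-xL) hold the outer membrane of mitochondria closed, Bcl2l11 (Bim) is a BH3-only protein that counters them, and Bax opens the membrane. Released cytochrome c then assembles Apaf1 into the apoptosome, which activates Casp9. Most CR cells die after birth, and Bax is needed for the death of some of them.

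The lists themselves differed in ways that bear on every count below. They held from 1386 to 102881 peaks for H3K27ac and from 1438 to 48963 for H3K27me3, and the H3K27ac list of Ebf2-EGFP- cells and the H3K27me3 list of E15.5 were the shortest. In Ebf2-EGFP- cells 0 of 6 progenitor markers had H3K27ac at a start and 5 had H3K27me3, against 4.70% and 55.1% of all genes. In Ebf2-EGFP+ cells 6, 6 and 5 of the 6 had H3K27ac by stage, against 55.8%, 67.3% and 56.4% of all genes. These shares also stand beside the other marker counts of those 3 lists below. In Ebf2-EGFP- cells 3 of the 9 CR markers had H3K27ac and 8 had H3K27me3. The progenitor markers thus do not bear out the label of the Ebf2-EGFP- lists, but 6 genes cannot settle it. Few genes of any kind had H3K27ac near a start there (4.70%). For H3K27ac, 0 of 6 is near that share. Of the same 9 CR markers, which include Trp73, 8, 9 and 7 had H3K27ac in Ebf2-EGFP+ cells by stage (first E11.5, last E15.5), and of 6 pan-neuronal markers 4, 3 and 5 had. Among markers of other cells in those 3 lists, endothelial genes were marked in 2, 4 and 1 of 4 cases, microglia and blood genes in 1, 1 and 2 of 5, genes of the meninges and fibroblasts in 1, 2 and 0 of 4, and interneuron genes in 4, 6 and 4 of 6. The part of such cells in the results was not tested.

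Sequences of the stretches at which the lists meet are shown first, because they locate the marks at 5 of the genes. They are printed on the strand of the gene, 5′ to 3′, from the RefSeq GRCm38 (mm10) genome, with each CpG dinucleotide in capitals. CpG-rich promoters are the usual substrate of both marks. A stretch inside an untranslated exon was shortened, so the printed part can be less than the overlap. For Trp73 the stretch at chr4:154140179-154140231 holds the 5′ transcript start. It is part of the 89 bp at chr4:154140143-154140231 that the H3K27me3 peak of Ebf2-EGFP- cells had in common with the H3K27ac peaks of the first 2 stages. For Casp9 the stretch at chr4:141793825-141793857 ends on the start codon, and lies in the 39 bp at chr4:141793819-141793857 that 4 lists shared, H3K27me3 of Ebf2-EGFP- cells and H3K27ac of every stage. For Bcl2l1 the stretch at chr2:152831229-152831401 lies in an intron between starts, and is the whole H3K27ac peak of E13.5, inside those of E11.5 and E15.5. For Apaf1 the stretch at chr10:91083097-91083186 lies upstream, near starts of the divergent gene Ikbip, in the H3K27ac peaks of all 3 stages. For Trp53 the stretch at chr11:69581047-69581316 is the H3K27ac peak of E11.5 in the intron after the 5′ start, which lies inside that of E15.5.
Trp73, 5′ start: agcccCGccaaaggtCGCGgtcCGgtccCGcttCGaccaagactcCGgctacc
Casp9, start codon: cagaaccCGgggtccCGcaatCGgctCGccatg
Bcl2l1, between starts: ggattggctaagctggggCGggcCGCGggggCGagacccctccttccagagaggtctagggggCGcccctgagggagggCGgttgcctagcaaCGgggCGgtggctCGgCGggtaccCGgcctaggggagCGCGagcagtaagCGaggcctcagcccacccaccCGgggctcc
Apaf1, upstream: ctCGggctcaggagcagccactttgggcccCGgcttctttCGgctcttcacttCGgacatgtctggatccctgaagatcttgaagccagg
Trp53, intron: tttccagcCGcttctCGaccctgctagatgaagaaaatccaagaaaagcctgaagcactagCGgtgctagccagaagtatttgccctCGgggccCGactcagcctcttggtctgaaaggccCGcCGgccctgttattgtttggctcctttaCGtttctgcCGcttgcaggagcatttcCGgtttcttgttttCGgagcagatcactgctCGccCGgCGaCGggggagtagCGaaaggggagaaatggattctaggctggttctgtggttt

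Of the 6 H3K27me3 peaks listed for Ebf2-EGFP+ cells at Trp73 and Trp53, 3 are shown, because they come from the first and the last stage. These are the E11.5 peak at the last internal start of Trp73 (the part at chr4:154085202-154085260, with 1 CpG), the E15.5 peak in an intron of Trp73 (chr4:154135478-154135705, 3 CpG) and the E15.5 peak inside Trp53 (chr11:69588816-69588944, 4 CpG). The other 3 are peaks of E13.5 at Trp73. That at chr4:154080899-154081499 held 25 CpG in 601 bp, that at chr4:154142313-154142428 held 12 in 116 bp, and that at chr4:154107987-154108229 held 2 in 243 bp.
Trp73, E11.5 H3K27me3: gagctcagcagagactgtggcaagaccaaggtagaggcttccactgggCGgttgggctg
Trp73, E15.5 H3K27me3: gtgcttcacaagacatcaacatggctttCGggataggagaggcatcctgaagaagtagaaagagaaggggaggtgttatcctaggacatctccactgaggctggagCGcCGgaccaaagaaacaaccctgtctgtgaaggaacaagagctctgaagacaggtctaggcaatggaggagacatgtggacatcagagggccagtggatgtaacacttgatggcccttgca
Trp53, E15.5 H3K27me3: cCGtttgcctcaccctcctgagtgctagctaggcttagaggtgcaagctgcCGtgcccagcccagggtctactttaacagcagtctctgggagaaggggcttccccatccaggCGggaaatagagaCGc

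Across the 9 genes, H3K27ac was found near a start of most genes in Ebf2-EGFP+ cells. At E11.5, 7 of the 9 genes had an H3K27ac peak within 5 kb of a start, against 55.8% of all protein-coding genes. The E13.5 list gave 8 of 9 against 67.3%, and the E15.5 list again 8 of 9 against 56.4%. In Ebf2-EGFP- cells it was 0 of 9 against 4.70%. H3K27me3 lay near a start of 5 of 9 genes in Ebf2-EGFP- cells, against 55.1% of all genes. In Ebf2-EGFP+ cells it lay near a start of 1 of 9 genes (9.27%), 1 of 9 (13.1%) and 2 of 9 (1.78%), from the first stage to the last. Trp73 held H3K27me3 in every list, and Trp53 was the other gene at E15.5. The 9 genes offer more places to a peak than most. Their median start windows cover 18337 bp against 12823 for all genes, and their median length is 51061 bp against 17425.

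**Figure D1:**
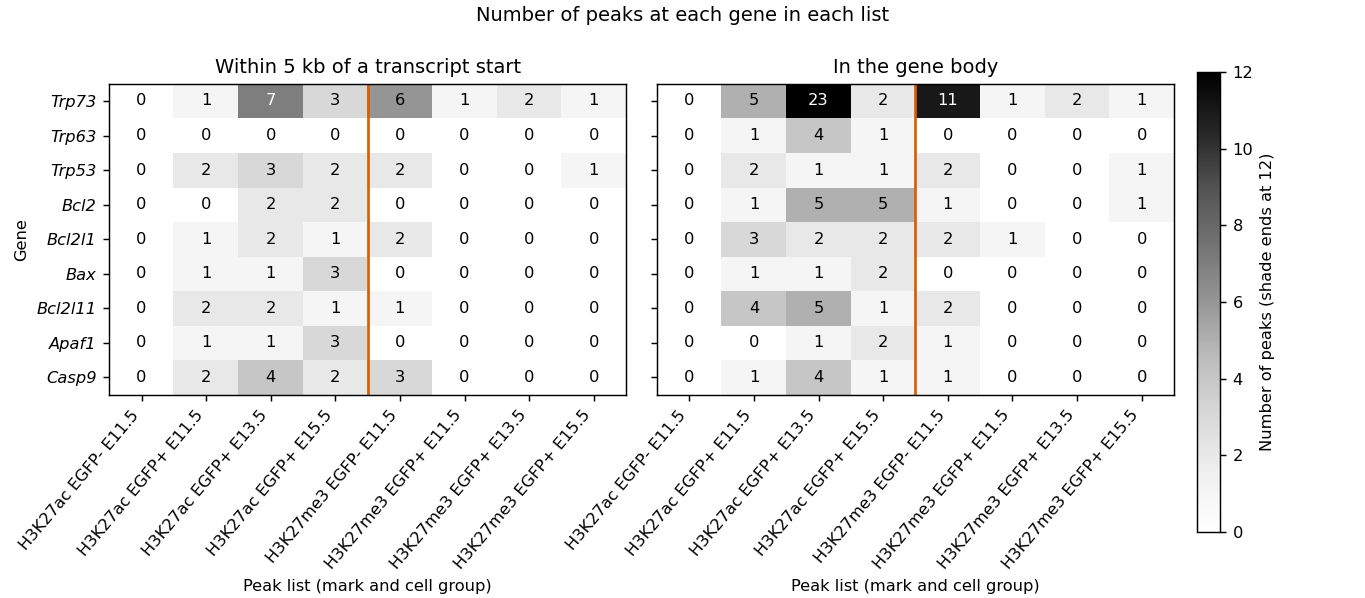
Number of peaks within 5 kb of any transcript start (left) and in the gene body (right) for 9 genes (rows) in 8 peak lists (columns, H3K27ac left and H3K27me3 right of the orange line). Numbers are peak counts and darker cells hold more, with the shade ending at 12. Trp73 holds 23 gene-body H3K27ac peaks at E13.5, and Trp63 has no peak of any list near a start.

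In the gene body, 8 of 9 genes had H3K27ac in Ebf2-EGFP+ cells of E11.5 and all 9 did in both later lists, against 56.6%, 68.8% and 56.5% of all genes. Apaf1 was the gene without a body peak in the first list, as its peak there lay upstream. In Ebf2-EGFP- cells it was 0 of 9 against 4.92%. H3K27me3 lay in the body of 7 of 9 genes in Ebf2-EGFP- cells, against 56.8%, and of 2, 1 and 3 of 9 genes by stage in Ebf2-EGFP+ cells, against 14.1%, 15.7% and 2.97%. Gene length bears on these shares. Among the genes of the top decile of length, which include Trp63 and Bcl2, 86.1%, 96.6% and 83.3% had an H3K27ac peak in the body in the same 3 lists, and 90.7% had H3K27me3 in Ebf2-EGFP- cells.

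The E13.5 list, the longest, gave 52 H3K27ac peaks at the 9 genes, with a median width of 180 bp. The E11.5 list gave 20 and the E15.5 list 22, and their median widths were 298.5 and 332.5 bp. Of the 52 peaks of E13.5, 12 overlapped an H3K27ac peak of another Ebf2-EGFP+ stage, compared with 11 of the 20 earlier and 10 of the 22 later peaks. Over the whole lists the same shares were 18.5%, 48.1% and 52.1% in the same order. For H3K27me3 there were 23 peaks in Ebf2-EGFP- cells, and 2, 3 and 3 by stage in the positive cells. Of these 23, 13 overlapped an H3K27ac peak of Ebf2-EGFP+ cells, as did 49.1% of that whole list.

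Of the p53 family, Trp73 (ENSMUSG00000029026.16, chr4:154056253-154140208, minus strand) held the most peaks, 31 of H3K27ac and 17 of H3K27me3. Its annotation has 5 distinct starts in 4 places. The first is the 5′ end of the gene, with coding sequence that begins at 154104895. The others lie 23603, 43035 and 54886 bp downstream. The start 43035 bp downstream (chr4:154097173, with another 6 bp on) has its own first coding position at 154096932, and lies where the ΔN promoter is known to be.

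H3K27ac covered or flanked the 5′ start of Trp73 in all 3 Ebf2-EGFP+ lists. At E11.5 the peak at chr4:154140143-154140428 was 286 bp wide and covered the start. At E13.5 the peak at chr4:154139606-154140387 was 782 bp wide and covered it too. At E15.5, peaks of 344 bp (chr4:154139688-154140031) and 321 bp (chr4:154140571-154140891) lay on either side, with their nearer edge 177 bp from the start. The internal starts differed from this. Within 5 kb of the ΔN start no H3K27ac was listed at E11.5, 2 peaks were listed at E13.5 with the nearer 1724 bp away, and 1 peak at E15.5 lay 4350 bp away. No peak of either mark in any list lay within 1 kb of that start.

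Beyond the starts, the H3K27ac peaks of Trp73 lay at different places in the 3 lists. At E11.5 the other 4 peaks lay near the 3′ end, between 72709 and 83006 bp from the 5′ end, over the last coding exons and the 3′ UTR. The widest of the 4, at chr4:154056976-154057428, had 453 bp and lay wholly in the 3′ UTR. At E13.5, 23 peaks ran along the whole gene, 16 of them wholly intronic. At E15.5 the 1 peak outside the 5′ start region, at chr4:154092520-154092823 (304 bp), lay in an intron 47537 bp from the 5′ end and overlapped a peak of E13.5. No H3K27ac peak was listed at the 3′ end at E15.5.

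H3K27me3 was listed at Trp73 in every cell group, but at different places. In Ebf2-EGFP- cells there were 12 peaks of 130 to 242 bp, and that at chr4:154140030-154140231 (202 bp) covered the 5′ start. In Ebf2-EGFP+ cells at E11.5 the 1 peak (chr4:154085202-154085317, 116 bp) ended 5 bp from the last internal start. At E13.5, 3 peaks were listed. That at chr4:154080899-154081499 was 601 bp wide and overlapped an H3K27ac peak of the same stage over 324 bp. That at chr4:154142313-154142428 lay 2162 bp upstream, with its centre 2 bp from a start of the divergent gene Wrap73, so it cannot be assigned to Trp73 alone. At E15.5 the 1 peak (228 bp) lay in an intron, 4617 bp from the 5′ start. None of the H3K27me3 peaks of Ebf2-EGFP+ cells covered the 5′ start.

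**Figure D2:**
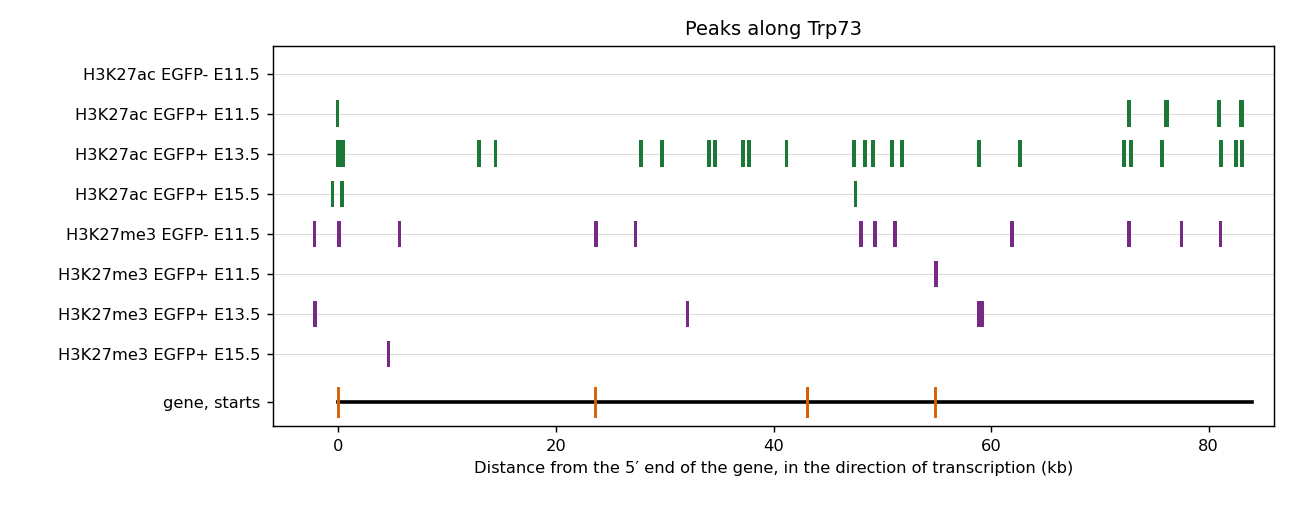
Peaks along Trp73 in each of the 8 lists (rows), by distance from the 5′ end of the gene in kb, with H3K27ac in green and H3K27me3 in purple. The black line is the gene, orange ticks are annotated starts, and peaks narrower than 0.35 kb are drawn at that width. H3K27ac sits at the 5′ start in the 3 Ebf2-EGFP+ rows, the E13.5 row holds 23 peaks, and H3K27me3 of Ebf2-EGFP+ cells lies away from the 5′ start.

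Few genes had the pattern of Trp73. H3K27me3 within 5 kb of a start in all 4 lists was found at 33 genes, 0.150% of all, and Trp73 was the only 1 of the 9. The pattern was read from Trp73 itself, and short lists bound the count. In Ebf2-EGFP+ cells the E15.5 list marked 390 genes at a start and the E11.5 list 2034. The peaks of the 4 lists at Trp73 also lay at different places. The start windows of Trp73 are long, and among the 1415 genes with start windows at least as long (40010 bp or more) the share was 0.636%. With a window of 1 kb the H3K27me3 of E13.5 and E15.5 no longer counted. The on/off pattern over all 8 lists, H3K27me3 everywhere and H3K27ac at every stage of the positive cells, was shared by 22 genes, Trp73 included. Ranked by the log2 of the bases covered in each list, the 5 nearest were Gm4981, Nphs1, Duxf3, Fgf3 and Capn15, at Euclidean distances of 1.68, 2.35, 2.53, 2.86 and 2.95. Gm4981 and Duxf3 belong to a repeated gene family and have the same covered lengths in the 3 H3K27me3 lists of Ebf2-EGFP+ cells (159, 615 and 144 bp), so they are uncertain and not independent of each other.

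Trp63 (ENSMUSG00000022510.14, chr16:25683763-25892102, plus strand) differed from Trp73. No peak of any list lay within 5 kb of its TA start or of its internal ΔN start, which is 118153 bp downstream (chr16:25801916). The same held for 4302 genes, 19.6% of all, and for 8.8% of the genes in its decile of length. In the body, the lists by stage held 1, 4 and 1 peaks of H3K27ac, from 134 to 257 bp wide, and no H3K27me3 in any list. None of the 6 overlapped a peak of another list. The E11.5 peak (chr16:25733435-25733691) was intronic. At E13.5, 3 peaks were intronic and the peak of 149 bp at chr16:25820455-25820603 lay wholly in a coding exon.

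**Figure D3:**
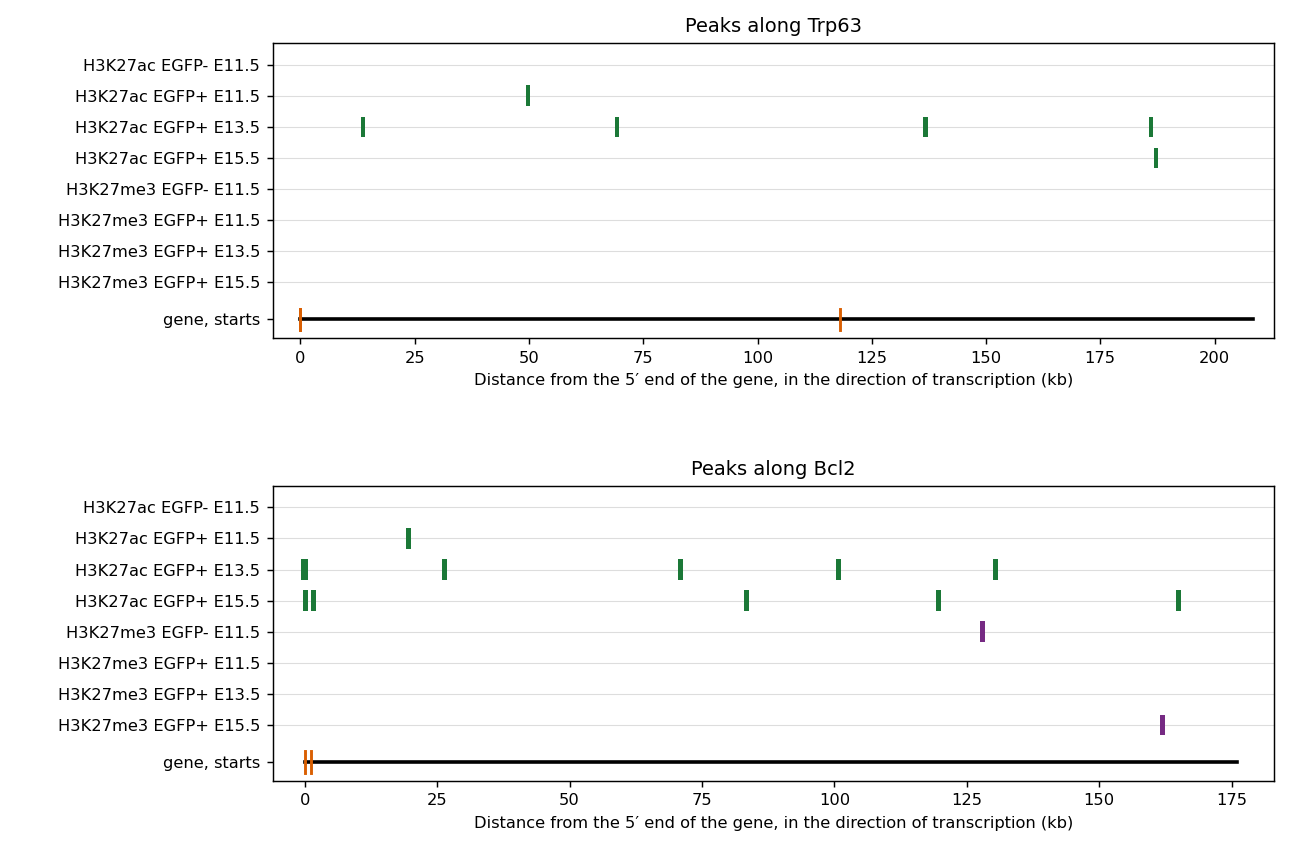
Peaks along Trp63 (top) and Bcl2 (bottom) in each of the 8 lists (rows), by distance from the 5′ end in kb, with H3K27ac in green and H3K27me3 in purple. The black line is the gene, orange ticks are annotated starts, and peaks narrower than 0.9 kb are drawn at that width. Trp63 has 6 scattered H3K27ac peaks and none at its starts, while Bcl2 has H3K27ac at its 5′ end at E13.5 and E15.5.

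Trp53 (ENSMUSG00000059552.13, chr11:69580359-69591873, plus strand) had H3K27ac in all 3 Ebf2-EGFP+ lists, though not at 1 site. At E11.5 a peak of 270 bp lay in the intron 822 bp after the 5′ end, and another of 336 bp (chr11:69588307-69588642) lay over coding exons within the gene. The intronic peak was centred 926 bp from a start of the divergent gene Wrap53, so it cannot be assigned to Trp53 alone. At E15.5 an 841-bp peak (chr11:69580652-69581492) covered the same intronic site, with its centre 817 bp from a start of Wrap53. A 368-bp peak of E15.5 lay 1228 bp upstream, with its centre 193 bp from a start of Wrap53. At E13.5 the intronic site had no peak, and the 3 peaks listed lay 3048 bp upstream, in exons 9050 bp into the gene and downstream of it. H3K27me3 was listed at 2 places in Ebf2-EGFP- cells (169 and 130 bp) and at 1 in E15.5 cells (129 bp). All 3 lay wholly in exons of its transcripts, coding or non-coding, between 7107 and 8911 bp from the 5′ end. Over those whole lists, 15.7% and 11.4% of peaks lay wholly in exons, and 3 peaks of 1 gene are too few to compare with these shares. The 3 peaks count as near a start only by a non-coding transcript that begins at chr11:69588695. A processed pseudogene of Trp53 on chromosome 17 could share reads with coding exons, so the peaks in coding exons are uncertain. No peak of any list lay on that copy. Both H3K27me3 peaks of Ebf2-EGFP- cells overlapped coding exons and exons of non-coding transcripts. The H3K27me3 peak of E15.5 overlapped an exon of a non-coding transcript and no coding exon.

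The anti-apoptotic genes were marked differently by stage. Bcl2 (ENSMUSG00000057329.7, chr1:106538178-106714274, minus strand) was the only cell death gene of the 6 with no H3K27ac near a start at E11.5, when its only peak (142 bp) lay in an intron 19642 bp from the 5′ end. At E13.5 peaks of 126 bp (chr1:106713965-106714090) and 245 bp (chr1:106714502-106714746) lay on either side of the 5′ start. At E15.5 a 544-bp peak (chr1:106713798-106714341) covered it, and a 376-bp peak lay in the coding exon. H3K27me3 was found only in the body of Bcl2, at 131 bp in Ebf2-EGFP- cells and 118 bp at E15.5, both in introns, 127971 and 161908 bp from the 5′ end. H3K27ac in the E13.5 and E15.5 lists with neither mark elsewhere was the pattern of 561 genes, 2.56% of all.

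Bcl2l1 (ENSMUSG00000007659.18, chr2:152780668-152831728, minus strand) had H3K27ac near its starts in all 3 Ebf2-EGFP+ lists. The peak at E11.5 was 675 bp wide (chr2:152830893-152831567) and that at E15.5 was 922 bp (chr2:152830728-152831649), the widest at any of the 9 genes. At E13.5 the peak between the starts was 173 bp. In Ebf2-EGFP- cells, H3K27me3 peaks of 161 bp (chr2:152831039-152831199) and 199 bp (chr2:152831512-152831710) lay at the same starts. The first of them lay wholly inside the H3K27ac peaks of E11.5 and E15.5. The only other H3K27me3 was 192 bp in an intron at E11.5 in Ebf2-EGFP+ cells, 37082 bp from the 5′ end.

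Bcl2l11 (ENSMUSG00000027381.16, chr2:128126038-128162547, plus strand), the BH3-only gene, also had H3K27ac near a start in the 3 Ebf2-EGFP+ lists. At E11.5 a 326-bp peak (chr2:128125864-128126189) covered the 5′ start. A 415-bp peak (chr2:128127413-128127827) covered an internal start of a non-coding transcript, 1582 bp downstream. At E15.5 only the internal site had a peak (chr2:128127516-128127888, 373 bp). At E13.5 neither site had a peak, and the nearest peak (167 bp) lay 391 bp upstream. In Ebf2-EGFP- cells a 157-bp H3K27me3 peak lay in the intron between them, 991 bp from the 5′ end, and another of 182 bp in the 3′ UTR. The 3′ UTR peak overlapped an H3K27ac peak of E13.5 over 131 bp.

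Bax and Apaf1 had H3K27ac near a start at every stage of the positive cells and no H3K27me3 near a start in any list, a pattern that 1182 genes (5.39%) had. Bax (ENSMUSG00000003873.11, chr7:45461697-45466898, minus strand) had peaks of 487 bp at E11.5, 170 bp at E13.5 and 737 bp at E15.5 over its first exons. All 3 overlapped in the 50 bp at chr7:45466724-45466773. Apaf1 (ENSMUSG00000019979.12, chr10:90989311-91082770, minus strand) had peaks of 420, 200 and 238 bp by stage upstream of its 5′ end, with centres 448, 316 and 428 bp away. These lay 98, 20 and 78 bp from a start of the divergent gene Ikbip, and the marks of both genes cannot be told apart there. At E15.5 a further peak of 496 bp (chr10:91082278-91082773) covered the 5′ starts of Apaf1 itself. In the body, Apaf1 had a 136-bp H3K27me3 peak in Ebf2-EGFP- cells, of which 118 bp were shared with an H3K27ac peak of E13.5.

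Casp9 (ENSMUSG00000028914.13, chr4:141793612-141815976, plus strand) had 3 H3K27me3 peaks within 5 kb of a start in Ebf2-EGFP- cells, 2 of which lay at the neighbouring gene Dnajc16. The third, of 537 bp (chr4:141793321-141793857), covered the 5′ start of Casp9. In Ebf2-EGFP+ cells H3K27ac lay at the same place, as 1 peak of 557 bp first, then peaks of 196 and 137 bp, and last 1 of 481 bp, and no H3K27me3 was listed. A second site about 3 kb upstream followed the same course, with H3K27me3 of 367 bp in Ebf2-EGFP- cells and H3K27ac of 311, 362 and 672 bp by stage. Its peaks were centred 289 to 331 bp from a start of Dnajc16, so by distance the site lies at that gene. The other H3K27me3 peak there (162 bp) was centred 26 bp from a start of Dnajc16.

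**Figure D4:**
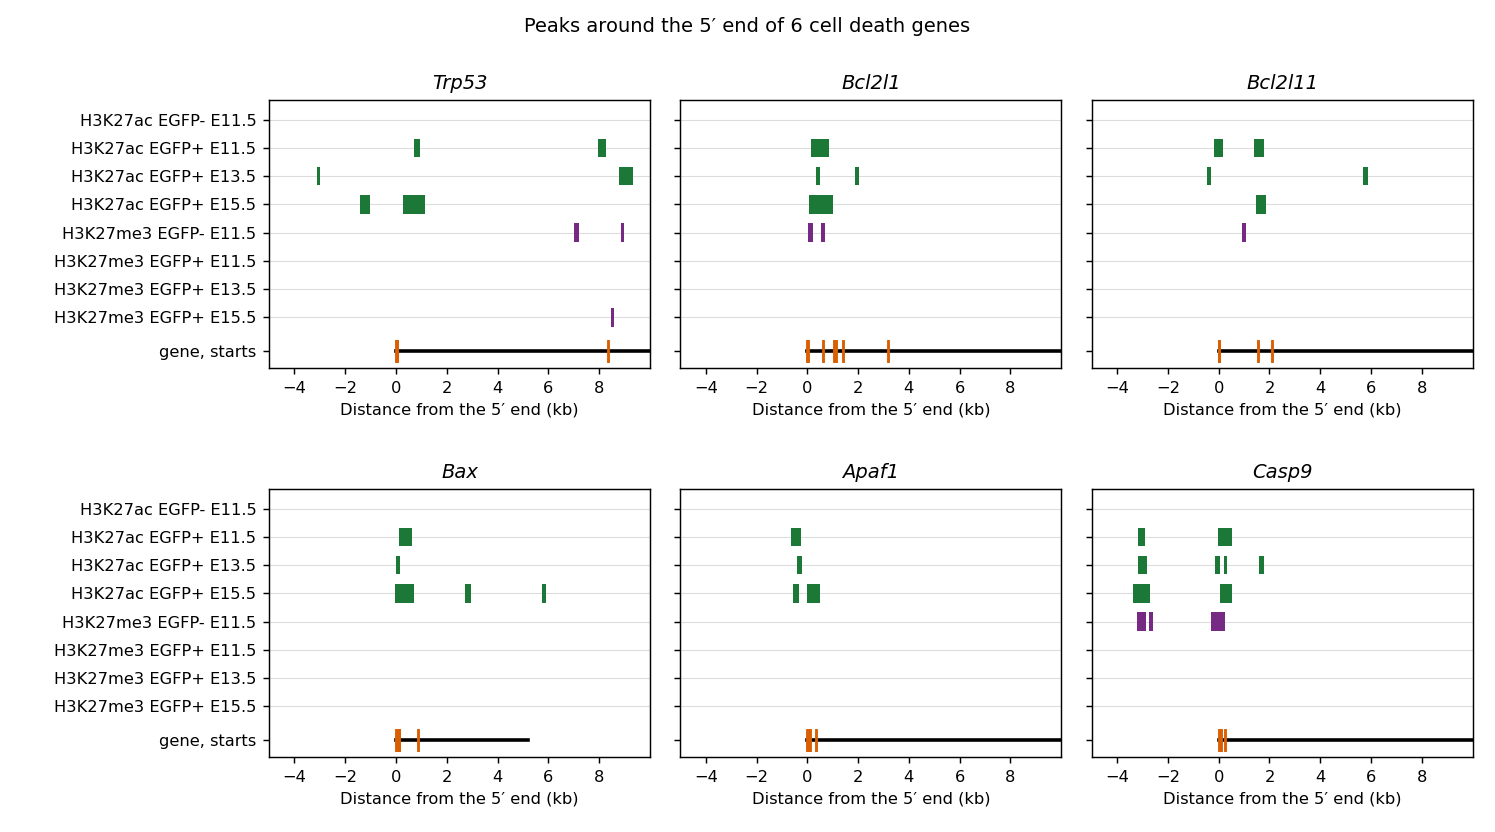
Peaks from 5 kb before to 10 kb after the 5′ end of 6 genes (panels) in each of the 8 lists (rows), by distance from the 5′ end in kb along the direction of transcription, with H3K27ac in green and H3K27me3 in purple. The black line is the gene and orange ticks are annotated starts. H3K27ac lies near the 5′ starts in the Ebf2-EGFP+ rows, except at Trp53 at E13.5. The H3K27me3 of Ebf2-EGFP- cells covers the 5′ end itself only at Casp9. At Bcl2l1 it reaches a start 18 bp from the 5′ end.

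By the marks at their starts, negative and positive cells of E11.5 had different states at 7 of the 9 genes, against 67.1% of all genes. Trp53, Bcl2l1, Bcl2l11 and Casp9 had H3K27me3 only in the first and H3K27ac only in the second. The same was true of 32.6% of all genes, so 4 of 9 is near the background. Trp73 had H3K27me3 only in the first and both marks in the second, and Bax and Apaf1 had neither mark and then H3K27ac. Trp63 and Bcl2 had neither in both. Within Ebf2-EGFP+ cells alone, 7 of 9 genes had H3K27ac at a start at all 3 stages, against 40.2% of all genes, and Bcl2 had it in the last 2 lists.

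Both marks near a start in the same cell group were found at 0 to 2 of the 9 genes. The count was 0 in Ebf2-EGFP- cells, against 4.08% of all genes. In Ebf2-EGFP+ cells it was 1 (7.61%), 1 (12.3%) and 2 (1.37%) by stage. Trp73 was the gene in each case, joined by Trp53 at E15.5. The peaks of both marks overlapped only at Trp73 at E13.5. At Trp73 at E15.5 the H3K27me3 peak was 4617 bp from the 5′ start, and at Trp53 it was 8521 bp into the gene, while the H3K27ac peaks were centred 1228 bp before and 713 bp after the 5′ end.

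RefSeq promoters of 300 bp, from 250 bases before to 50 after the start, were found for 8 of the 9 genes, 12 promoters in all. The 5′ promoter of Trp73 had 77.7% GC and 39 CpG, that of Bcl2 76% and 44, and that of Apaf1 74.7% and 46. The ΔN promoter of Trp73 had 57.7% and 6, and that of Trp53 52.7% and 10, close to the medians of 52.7% and 7 over 32851 promoters. Neither of the last pair overlapped a peak of any list, whereas the first 3 promoters each overlapped H3K27ac of both later stages. The other promoters did not all follow CpG content. That of Bax (57.3% GC and 19 CpG) overlapped H3K27ac of both later stages, and 1 of Bcl2l1 (55.7% and 14) that of E11.5 and E15.5. The 2 of Bcl2l11 (71% and 27, 74% and 38) overlapped no peak of E13.5, and that of Casp9 (66% and 28) none of E15.5. These gaps depend on where the 300 bp end. The Casp9 promoter ends at chr4:141793661, and the E15.5 H3K27ac peak begins at chr4:141793664. The first Bcl2l11 promoter begins at chr2:128125788, and an E13.5 H3K27ac peak ends at chr2:128125730. A match to the p53 half-site was found on either strand in the promoters of Bax and Trp53, and in 8.36% of all promoters. The match of Bax lay 201 bases before the start (chr7:45467090-45467099) and that of Trp53 75 bases before it (chr11:69580284-69580293), and no peak of any list covered either. The Apaf1 stretch printed above, which lies outside these promoters, also holds a match to the half-site, under the H3K27ac peaks of all 3 stages. It lies near starts of the divergent gene Ikbip, so that match cannot be assigned to Apaf1 alone. The matches in the promoters of Bax and Trp53 are shown in capitals with their flanks.
Bax, half-site: agcatatcccAGGCAAGCTTtgaacttgcg
Trp53, half-site: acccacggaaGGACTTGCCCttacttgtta

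The core CCCNNGGGA of the site of EBF factors, the family of Ebf2, was found in the promoter of Bcl2 and in 6.56% of all promoters. It lay at the edge of the E13.5 H3K27ac peak. The E2F motif TTTNGCGC was found in 1 promoter of Bcl2l1, under its E15.5 H3K27ac peak, and in 1.38% of all. Both strands were searched, and none of these matches overlapped another. They are matches of letters and not measured binding.

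The wider pathways were looked at through 64 other genes in 9 lists, all of them in the annotation. By stage, 46, 51 and 47 of the 64 had H3K27ac at a start in Ebf2-EGFP+ cells (71.9%, 79.7% and 73.4%), and 35 had it at all 3 stages. The shares of all genes were 55.8%, 67.3% and 56.4% by stage, and 40.2% for all 3 stages. In Ebf2-EGFP- cells H3K27ac was found at 2 of the 64, against 4.70% of all genes. H3K27me3 was found at 44 in Ebf2-EGFP- cells and, by stage, at 12, 15 and 0 in the positive cells (68.8%, 18.8%, 23.4% and 0%). The shares of all genes were 55.1%, 9.27%, 13.1% and 1.78% in the same order. The 9 genes described here had H3K27ac somewhat more often (77.8%, 88.9% and 88.9%), which over 9 genes is a difference of about 1 gene. At E15.5 Trp73 and Trp53 had H3K27me3, while none of the 64 other genes had. As 1.78% of all genes had it in that list, 0 of 64 is near the background.

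**Figure D5:**
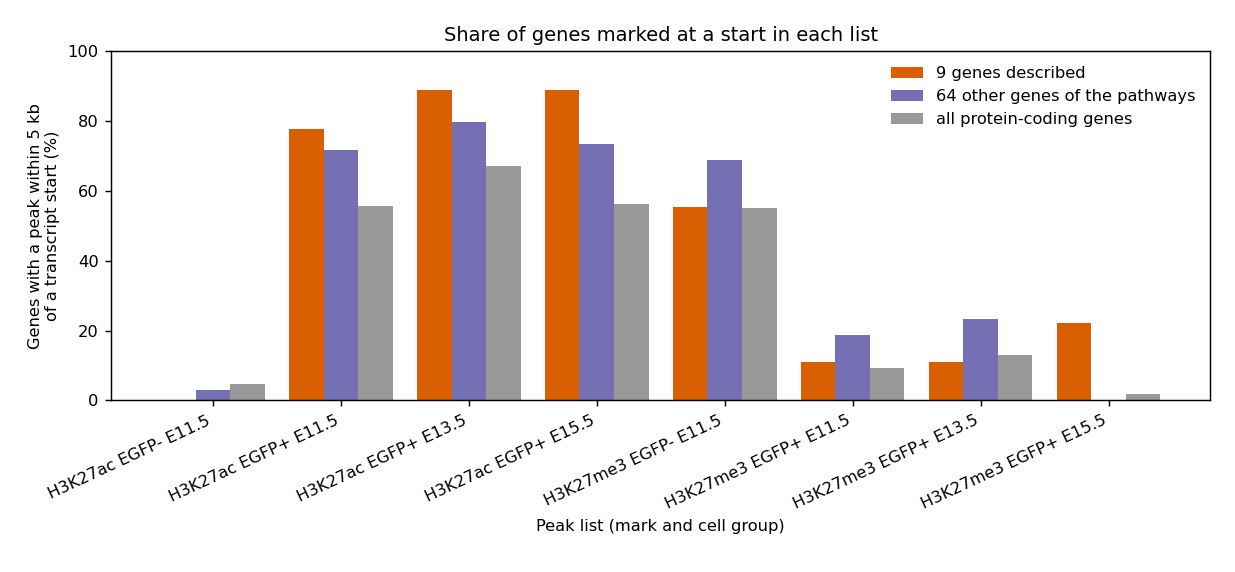
Share of genes with a peak within 5 kb of any transcript start (%) in each of the 8 lists, for the 9 genes described (orange), 64 other genes of the same pathways (violet) and all protein-coding genes (grey). In the Ebf2-EGFP+ H3K27ac lists the orange bars stand at 77.8% to 88.9% and the grey bars at 55.8% to 67.3%, and in H3K27me3 of E15.5 the orange bar is 22.2%, or 2 genes.

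Counts of H3K27ac by stage in each pathway list stand beside 55.8%, 67.3% and 56.4% of all genes. Regulators of p53 had H3K27ac in 9, 9 and 8 of 10 cases by stage. Usp7, which removes ubiquitin from Mdm2 and p53, was 1 of the 2 pathway genes with H3K27ac in Ebf2-EGFP- cells, with 1 peak there besides 3 of H3K27me3, and the other was Birc3, an inhibitor of apoptosis. Of 16 target genes of p53, 11, 14 and 11 had H3K27ac. Perp, a membrane protein, had none in Ebf2-EGFP+ cells. Tnfrsf10b, a death receptor, had H3K27me3 at E11.5 and E13.5 and H3K27ac only at E13.5 (2 peaks). Sesn1 had both marks at E11.5 and E13.5, and H3K27ac alone at E15.5.

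Among relatives of Bcl2, both multidomain death effectors of the list had H3K27ac at each stage, and Bok, 1 of them, also had H3K27me3 at E11.5 and E13.5. The BH3-only genes had H3K27ac in 7, 9 and 6 of 9 cases. Hrk had 0, 6 and 1 H3K27ac peaks by stage, with H3K27me3 at E13.5. Bbc3 (Puma), a target of p53, had 6, 5 and 4 H3K27ac peaks by stage and H3K27me3 at E13.5. Bik had 4, 10 and 1 H3K27ac peaks with H3K27me3 at E11.5 and E13.5. Of the 5 anti-apoptotic genes, 3, 2 and 2 had H3K27ac by stage, and Bcl2a1a and Bcl2a1d had no peak in any list near a start. They are near-identical copies, to which reads may not be assigned, so this is uncertain.

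Downstream, 3, 4 and 5 of 5 apoptosome and mitochondrial genes had H3K27ac by stage, and 3, 3 and 4 of 5 caspase genes. Inhibitors of apoptosis had it in 3, 4 and 4 of 6 cases, near the shares of all genes. Casp6 had none in Ebf2-EGFP+ cells, nor had Xiap, an inhibitor of caspases, and Ngfr, the p75 neurotrophin receptor. Casp6 and Ngfr each had 1 H3K27me3 peak in Ebf2-EGFP- cells, while Xiap had no peak near a start in any list. In the death receptor pathway 5, 4 and 5 of 6 genes had H3K27ac. In all, 21 of the 64 genes (32.8%) had H3K27me3 in at least 1 Ebf2-EGFP+ list, against 20.8% of all genes. H3K27me3 in Ebf2-EGFP- cells with H3K27ac in the positive cells of that age was found at 37 of the 64 (57.8%), against 42.6% of all.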

How the data were processed

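The series holds 15 ChIP samples of 2 histone marks and 8 input samples. According to the study's methods and the submitters' processing notes, reads were aligned to mm10 with Bowtie 1.1.2, with at most 3 mismatches, and MACS called peaks at a p-value of 1e-05. The version of MACS, its control and the pooling of replicates are not given in the sources used here. The authors deposited 1 list for each of the 8 ChIP groups, with a score of 0 for every peak, so no height or enrichment could be used, and sequencing depth is unknown.

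Starts were read as counted from 0 and are printed counted from 1, and may be off by 1 bp. Genes and transcript starts came from GENCODE M21 (21938 protein-coding genes of chromosomes 1 to 19, X and Y). A peak counted when at least 1 bp lay within 5 kb of any annotated start, or in the gene. Exons, UTRs and introns are those of any transcript of the gene. Peaks of both marks and of all cell groups were treated alike. No test was made, because each group has 1 list, and shares of all genes stand beside the counts. The overlap functions were tested on simulated data. Python 3.11.15 was used, with samtools 1.23.1 to index the genome.

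The 9 genes, the 64 pathway genes and the marker lists were chosen with earlier results of these data known. Named pathway genes had H3K27me3 in an Ebf2-EGFP+ list, H3K27ac in Ebf2-EGFP- cells, or no H3K27ac in Ebf2-EGFP+ cells, and the other genes are given as counts. Shown stretches were those of at least 30 bp, within 1 kb of a start, shared by the most lists, and Ebf2-EGFP+ H3K27me3 peaks. Windows of 1 and 10 kb, other starts, wider peaks, the widest peaks and peak centres were tried.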

Additional observations from a re-analysis of the deposited data

How the results depend on the processing

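Counts of the 9 genes were recomputed under the other settings, and every change by more than 1.5 times was to a lower count. No paired analysis was possible because each group has 1 list, which carries no replicate number, and no test was made. A window of 10 kb, peak centres in place of overlap and 5 kb added to the gene moved no count that far. With a window of 1 kb, H3K27me3 at a start fell to 0 at E13.5 and 1 at E15.5, as did genes with both marks. With the 5′ end alone it fell to 0 at E11.5 in Ebf2-EGFP+ cells and 1 at E15.5, again with both marks. With starts of coding transcripts it fell to 1 at E15.5, as did both marks. These losses are Trp73 and Trp53. Without the start windows, body counts fell to 5 (E11.5) and 3 (E15.5) for H3K27ac, and to 4 (Ebf2-EGFP-), 1 (E11.5) and 1 (E15.5) for H3K27me3.

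Peak width mattered most. With peaks of at least 300 bp, H3K27ac at E13.5 fell to 3 genes at a start and 3 in the body. H3K27me3 fell to 1 and 1 in Ebf2-EGFP- cells, and to 0 and 0 at E11.5 and E15.5, with both marks at 0 there. The change from H3K27me3 to H3K27ac was left at 1 gene. Of the 4 places with a start at Trp73, those with H3K27ac fell to 0 at E11.5 and 2 at E13.5, and those with H3K27me3 to 0, 0, 1 and 0 by cell group. With the widest 1386 H3K27ac and 1438 H3K27me3 peaks of each list, H3K27ac was left at 1 gene at E13.5 and 0 at E11.5 and E15.5, at starts and in bodies. H3K27me3 fell to 0 at E11.5 in both cell groups, both marks to 0 at E11.5 and E15.5, and the change of mark to 0 genes. At Trp73 each mark was left at 1 of the 4 places at E13.5, H3K27ac at 0 at E11.5 and E15.5, and H3K27me3 at 0 at E11.5 in either cell group. Unequal list lengths and unknown depth limit every comparison between lists.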
